A study of Mus musculus with 12 samples.

Results

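NRF2, the product of Nfe2l2, is the main transcription factor of the cell's defence against oxidants and electrophiles. Here 10 genes of that defence were followed in primary mouse aortic smooth muscle cells: Nfe2l2 itself, the glutathione genes Slc7a11, Gclc, Gclm, Gss and Gsr, and the classical NRF2 targets Nqo1, Txnrd1, Srxn1 and Hmox1. They were chosen by symbol with earlier results of these data known, so their counts and those of the lists below are descriptions and not independent evidence. All 10 were found among the 55822 Ensembl identifiers of the count table and passed its filter on low counts, as did 16140 identifiers in all. Gene positions are given in build GRCm38 from GENCODE M21. RNA was sequenced in 12 libraries, 4 in each of 3 groups. Cells of the first group were kept in regular growth medium, whose composition is not given in the sources used here. Cells of the second group, naive CM, spent 24 hours in conditioned medium (CM) that unstimulated bone marrow-derived macrophages had released over 24 hours. Cells of the third group, IFNγ/LPS CM, received medium collected in the same way from macrophages primed with interferon gamma (IFNγ, 20 ng/mL) overnight, given lipopolysaccharide (LPS, 100 ng/mL) for 4 hours and washed. Both conditioned media were made up with 0.3% serum and 10 ng/mL M-CSF, a macrophage growth factor, and the cells had first been starved in 0.3% serum for 48 hours. Naive CM and regular medium may therefore differ in more than the macrophage products, which the sources used here do not settle. For strain, sex and age of the donor animals the sources used here give nothing. The titles call the libraries biological replicates without naming separate animals or cultures, so a p-value here speaks only of the spread among libraries, part of which may be technical.

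In resting cells KEAP1 holds NRF2 in the cytoplasm and marks it for degradation. Oxidants or electrophiles modify KEAP1, and NRF2 then enters the nucleus, pairs with small MAF proteins and binds antioxidant response elements, where BACH1 can compete with it. Its targets import cystine, build and recycle glutathione, reduce thioredoxin and peroxiredoxins, detoxify quinones and break down haem. Several of these genes answer to other regulators too: Slc7a11 is also a target of ATF4, and Hmox1 of BACH1 derepression and hypoxia signalling.

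The library totals ranged from 28097496 to 61493375 counts. Levels are counts per 1000000 (CPM) of the total scaled by TMM, a between-library scaling. Smooth muscle markers were all detected, with a summed level of 334 to 417 CPM in regular medium, 301 to 317 CPM in naive CM and 116 to 119 CPM in IFNγ/LPS CM. Acta2 carried most of this sum (mean 280, 220 and 77.3 CPM). Others were near the floor: Myh11, Cnn1 and Des had means of 0.716, 0.276 and 0.464 CPM in regular medium. Tagln had a mean of 31.6 CPM there and 0.550 CPM in IFNγ/LPS CM. Of 16 macrophage markers, 5 were abundant enough to test. All 5 were higher in IFNγ/LPS CM than in naive CM, as were 36.1% of all genes. Mean levels went from 0.309 to 874 CPM for Mpeg1 and from 18.7 to 42.9 CPM for Cd14. They went from 1.07 to 6.19 CPM for Cd68, from 0.203 to 4.62 CPM for Csf1r and from 0.0785 to 0.472 CPM for Lyz2. The summed level of all 16 was 13.2 to 15.4, 19.7 to 21.4 and 891 to 1003 CPM in the 3 groups, or 13.0 to 15.1, 19.5 to 21.2 and 47.9 to 59.2 CPM without Mpeg1, which was set apart after its values were seen. C1qa and Fcgr1 had no count in any library, and Adgre1, the F4/80 antigen, had 2 counts in all 12, both in IFNγ/LPS CM. The 8 endothelial markers summed to at most 3.39 CPM in any library. Of 8 markers of adventitial fibroblasts 7 were tested: Dcn, Ly6a and Pdgfra were higher in IFNγ/LPS CM than in naive CM, Dpt, Pi16 and Cd34 lower, and Lum did not pass (edgeR). Their summed level of 6717 to 7407 CPM against 1810 to 1966 CPM was carried by Dcn (mean 4674 against 1595 CPM) and Ly6a (2379 against 215.2 CPM). The part of these and the macrophage markers in the results was not tested. In such bulk libraries, fewer cells of a type and less RNA per cell cannot be told apart. Which table columns are naive and which IFNγ/LPS CM was read from M0 and M1 in their names, the usual names of these macrophage states, and every direction below depends on it.

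Most of the 10 genes rose in IFNγ/LPS CM, but Gclc, the catalytic subunit of glutathione synthesis, and Nqo1 fell from their level in naive CM. Against naive CM, 8 of the 10 were higher and 2 lower, and all 10 passed the edgeR quasi-likelihood test at a Benjamini-Hochberg adjusted p of 0.05. That share has to be read against a background of 71.9% of all tested genes, 36.1% higher and 35.8% lower. The libraries of both groups did not overlap in any of the 10, which held for 69.5% of all genes. With a change of at least 2-fold as well, 7 were higher and 1 was lower, where 13.9% and 15.0% of all genes were. The 10 genes had a median change of 1.29 on the log2 scale, and all genes tested one of 0.0039. Together the 10 genes took 0.194 to 0.215% of all counts per library in IFNγ/LPS CM, 0.146 to 0.1497% in naive CM and 0.1005 to 0.108% in regular medium.

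**Figure D1:**
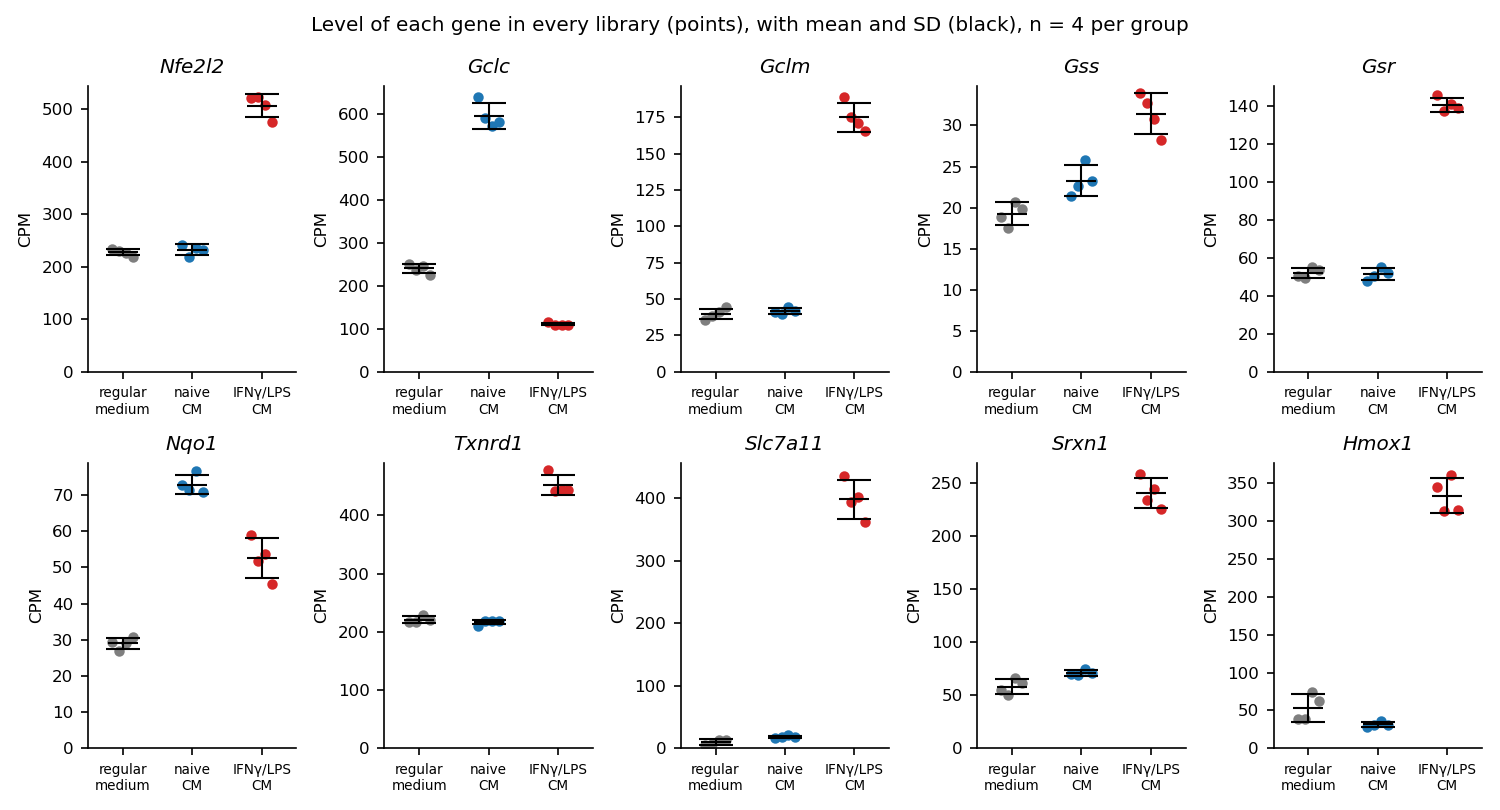
Level of each of the 10 genes (CPM, vertical axes from 0) in every library of regular medium, naive CM and IFNγ/LPS CM; points are libraries, black bars mean and SD (n = 4). In all 10 panels the IFNγ/LPS CM points lie apart from the naive CM points, above them except for Gclc and Nqo1.

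Nfe2l2, the transcription factor (ENSMUSG00000015839, chromosome 2, 75675513 to 75704641, minus strand), was read at 521, 522, 507 and 475 CPM in replicates 1 to 4 of IFNγ/LPS CM, at 242, 217.7, 236 and 232 CPM in naive CM, and at 233, 229, 227 and 219.4 CPM in regular medium. The 4 IFNγ/LPS CM libraries lie far above all others, and the other two groups overlap. Its level was 2.18-fold higher in IFNγ/LPS CM than in naive CM (log2 change 1.13, SE 0.043, edgeR adjusted p = 8.58e-15), and naive CM did not differ detectably from regular medium (0.03, 95% interval -0.07 to 0.13, edgeR adjusted p = 0.621). NRF2 is controlled mainly at the protein level, which these data do not measure.

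The antioxidant response element has the core letters TGACNNNGC. They were searched on both strands in the RefSeq promoter windows of build GRCm38.p6, which run from 250 bases before to 50 after a transcription start. Windows were matched for 7 of the 10 genes (9 windows). Gclc, Gsr and Hmox1 are the others. The letters occurred in 4 of these 9 windows, 1 each for Nfe2l2, Gclm, Txnrd1 and Srxn1, and in 12.4% of all 32851 windows. None of the 4 matches overlapped the AP-1 letters TGACTCA or TGAGTCA. They did not occur in the windows of Slc7a11 and Gss, which also rose in IFNγ/LPS CM, in that of Nqo1, which fell, or in the other 2 windows of Txnrd1. The 4 windows with a match are printed to show where it lies, and no relation between a match and a rise was tested. Upstream bases are shown for 3 of them and a short stretch around the match for Srxn1, with the match in capitals and each written 5′ to 3′ on the gene's strand.
Nfe2l2 (chr2:75704664-75704913, minus strand): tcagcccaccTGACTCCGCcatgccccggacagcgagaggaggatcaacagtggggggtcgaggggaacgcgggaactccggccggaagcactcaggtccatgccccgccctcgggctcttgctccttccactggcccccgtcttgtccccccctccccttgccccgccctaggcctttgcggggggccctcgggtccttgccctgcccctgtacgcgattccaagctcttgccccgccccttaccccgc
Gclm (chr3:122245307-122245556, plus strand): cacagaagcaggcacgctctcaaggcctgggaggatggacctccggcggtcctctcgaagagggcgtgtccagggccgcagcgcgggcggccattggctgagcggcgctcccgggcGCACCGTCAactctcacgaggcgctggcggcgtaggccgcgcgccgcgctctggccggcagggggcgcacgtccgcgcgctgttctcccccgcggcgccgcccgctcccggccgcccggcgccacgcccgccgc
Txnrd1 (chr10:82858956-82859205, plus strand): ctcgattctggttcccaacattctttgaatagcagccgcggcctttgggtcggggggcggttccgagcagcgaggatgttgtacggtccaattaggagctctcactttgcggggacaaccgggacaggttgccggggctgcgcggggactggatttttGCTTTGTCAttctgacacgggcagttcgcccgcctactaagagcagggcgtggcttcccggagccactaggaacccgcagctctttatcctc
Srxn1 (chr2:152105542-152105570, plus strand): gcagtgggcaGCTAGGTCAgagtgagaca
The match begins 240 bases before the start in Nfe2l2, where it lies on the gene's strand, 134 before it in Gclm and 92 before it in Txnrd1, and at base 29 after it in Srxn1, all 3 on the opposite strand. A match of letters is a description, not a binding site, and elements outside these windows were not looked for.

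Glutathione synthesis starts with cystine, which enters through system xc-, a pair of the light chain Slc7a11 (xCT) and the heavy chain Slc3a2. Slc7a11 (ENSMUSG00000027737, chromosome 3, 49892526 to 50443614, minus strand) stood at 436, 393, 402 and 361 CPM in IFNγ/LPS CM, against 16.3, 17.9, 20.7 and 18.0 CPM in naive CM and 5.77, 7.05, 13.97 and 13.6 CPM in regular medium (replicates 1 to 4 each). All 3 groups are separate, and within regular medium replicates 1 and 2 lie well below replicates 3 and 4. The rise over naive CM was 22.0-fold (log2 change 4.46, SE 0.25, edgeR adjusted p = 6.92e-08), the largest among the 10 genes. Slc3a2, a chain that other amino acid transporters share, rose 2.05-fold, from 68.6 ± 3.25 CPM to 141 ± 6.38 CPM (mean ± SD, n = 4 each; edgeR adjusted p = 2.31e-12).

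The ratio of the 2 chains' counts within a library does not depend on the scaling between libraries. It was 0.0929 to 0.197 in regular medium, 0.251 to 0.294 in naive CM and 2.73 to 3.01 in IFNγ/LPS CM. Light chain counts thus exceeded heavy chain counts in every IFNγ/LPS CM library and in no other. This crossing is one of counts, and Slc7a11 has the longer merged exons (13922 against 3529 bases). Divided by merged exon length, the ratio was 0.0636 to 0.0745 in naive CM and 0.693 to 0.763 in IFNγ/LPS CM. By these merged lengths the light chain stayed below the heavy chain. The lengths of the transcripts expressed were not measured, so the order of the chains per transcript is not settled. The ratio of counts was 10.7-fold higher in IFNγ/LPS CM than in naive CM, a difference of 3.41 on the log2 scale (two-sided exact permutation p = 0.0286, Benjamini-Hochberg adjusted 0.0286 over 4 ratio tests, n = 4 each). That p is the smallest that 4 against 4 libraries allow.

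Glutamate-cysteine ligase, the enzyme that sets the rate of glutathione synthesis, joins a catalytic subunit, Gclc, and a modifier subunit, Gclm, that raises its activity. The transcripts of the subunits moved in opposite directions. Gclc (ENSMUSG00000032350, chromosome 9, 77754535 to 77794485, plus strand) stood at 116, 109, 110 and 109 CPM in IFNγ/LPS CM, at 638, 589, 572 and 581 CPM in naive CM, and at 252, 238, 247 and 226 CPM in regular medium. No 2 groups overlap: naive CM is highest and IFNγ/LPS CM lowest. The fall from naive CM was 5.36-fold (log2 change -2.42, SE 0.046, edgeR adjusted p = 1.61e-19), and the level stayed 2.17-fold below regular medium (-1.12, SE 0.045, edgeR adjusted p = 2.12e-14).

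Gclm (ENSMUSG00000028124, chromosome 3, 122245557 to 122270732, plus strand) stood at 189, 176, 171 and 166 CPM in IFNγ/LPS CM, at 41.4, 39.5, 44.8 and 41.6 CPM in naive CM, and at 35.7, 38.5, 41.0 and 44.3 CPM in regular medium. Only IFNγ/LPS CM stands apart. The rise over naive CM was 4.20-fold (log2 change 2.07, SE 0.061, edgeR adjusted p = 5.79e-16). In GENCODE M21, 244 bases of the Gclm exons overlap a pseudogene on the same strand, so a few counts may be shared with it.

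Within a library, Gclc counts were 5.11 to 7.05 times the Gclm counts in regular medium and 12.8 to 15.4 times in naive CM, but 0.611 to 0.659 times in IFNγ/LPS CM. The ratio fell by 4.49 on the log2 scale from naive to IFNγ/LPS CM, which is 22.5-fold, and was 2.35-fold higher in naive CM than in regular medium (two-sided exact permutation p = 0.0286 each, adjusted 0.0286, n = 4 each). Divided by merged exon length, the ratio was 21.3 to 25.8 in naive CM and 1.02 to 1.101 in IFNγ/LPS CM. By these merged lengths, an excess of the catalytic subunit in both other media was near parity in IFNγ/LPS CM. The lengths of the transcripts expressed were not measured, so parity per transcript is not settled.

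**Figure D2:**
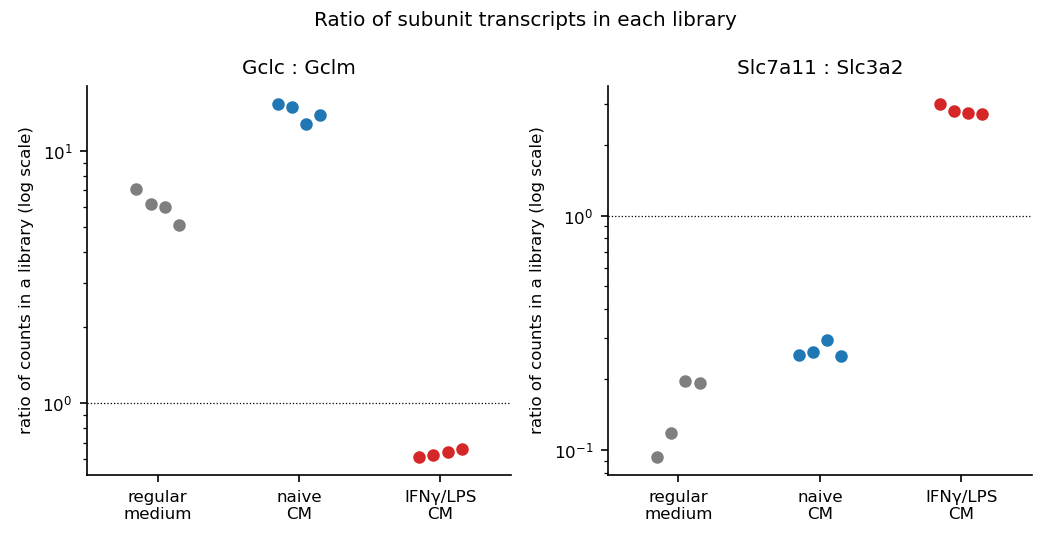
Ratio of Gclc to Gclm counts (left) and of Slc7a11 to Slc3a2 counts (right) in each library, on log axes; points are libraries of regular medium, naive CM and IFNγ/LPS CM, and the dotted line marks equal counts. The Gclc to Gclm ratio is 12.8 to 15.4 in naive CM and 0.611 to 0.659 in IFNγ/LPS CM, while the Slc7a11 to Slc3a2 ratio is 0.251 to 0.294 and 2.73 to 3.01. Counts are not divided by exon length.

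The remaining glutathione genes rose by less. Gss (ENSMUSG00000027610, chromosome 2, 155563181 to 155592810, minus strand), glutathione synthetase, adds glycine in the last step. It was at 28.2 to 34.0 CPM in IFNγ/LPS CM, 21.4 to 25.8 CPM in naive CM and 17.5 to 20.7 CPM in regular medium. The rise over naive CM was 1.35-fold (log2 change 0.44, SE 0.071, edgeR adjusted p = 1.81e-05), and it was 0.05 and did not pass when libraries were scaled by their totals alone (edgeR adjusted p = 0.533). Exons of Gss overlap those of Acss2 and of 2 antisense genes on the other strand, and the strand setting of the counting is not given in the sources used here, so its value is uncertain. Gsr (ENSMUSG00000031584, chromosome 8, 33652523 to 33698163, plus strand), glutathione reductase, regenerates reduced glutathione with NADPH. It was at 137 to 145 CPM against 47.6 to 54.9 CPM in naive CM and 49.2 to 54.9 CPM in regular medium. Its values in naive CM and regular medium overlap, and its rise over naive CM was 2.74-fold (log2 change 1.46, SE 0.048, edgeR adjusted p = 9.35e-16).

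Hmox1 (ENSMUSG00000005413, chromosome 8, 75093621 to 75100589, plus strand), haem oxygenase 1, splits haem into biliverdin, iron and carbon monoxide. It stood at 346, 313, 361 and 315 CPM in IFNγ/LPS CM. It was at 28.7, 31.1, 36.7 and 30.4 CPM in naive CM and at 38.3, 38.4, 75.0 and 63.0 CPM in regular medium. As for Slc7a11, replicates 3 and 4 of regular medium were the higher ones, and the coefficient of variation there was 34.2% for Hmox1 and 42.5% for Slc7a11, against 2.55 to 11.9% for the other 8 genes. Hmox1 rose 10.6-fold over naive CM (log2 change 3.40, SE 0.23, edgeR adjusted p = 2.69e-07).

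Txnrd1, the cytosolic thioredoxin reductase, and Srxn1, sulfiredoxin, which repairs overoxidised peroxiredoxins, serve the thioredoxin branch. Txnrd1 (ENSMUSG00000020250, chromosome 10, 82833951 to 82897712, plus strand) was at 442 to 477 CPM in IFNγ/LPS CM, against 210.7 to 218.9 CPM in naive CM and 216.3 to 229 CPM in regular medium, a 2.08-fold rise over naive CM (log2 change 1.06, SE 0.038, edgeR adjusted p = 3.46e-15). Srxn1 (ENSMUSG00000032802, chromosome 2, 152105516 to 152111376, plus strand) was at 226 to 259 CPM against 68.8 to 75.1 CPM in naive CM and 50.1 to 66.0 CPM in regular medium, a 3.38-fold rise (1.76, SE 0.071, edgeR adjusted p = 2.64e-12). In both genes every IFNγ/LPS CM library lies above every other library.

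Nqo1, a quinone reductase and a widely used NRF2 reporter gene (ENSMUSG00000003849, chromosome 8, 107388225 to 107403206, minus strand), did not follow them. It stood at 58.9, 51.8, 53.8 and 45.5 CPM in IFNγ/LPS CM, at 72.7, 71.3, 76.5 and 70.7 CPM in naive CM and at 29.2, 26.9, 29.1 and 30.6 CPM in regular medium. IFNγ/LPS CM thus lies between the other two groups without overlap. It was 1.39-fold lower than naive CM (log2 change -0.47, SE 0.063, edgeR adjusted p = 1.59e-06) and 1.81-fold higher than regular medium (0.86, SE 0.064, edgeR adjusted p = 4.47e-10).

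Naive CM was compared with regular medium, for which the sources used here give no serum, M-CSF or starvation. Macrophage products and any difference in these therefore cannot be told apart. This comparison moved fewer of the 10 genes: 5 were higher, 1 was lower and 4 did not pass, a share of 60.0% against a background of 34.7% of all genes, 18.3% higher and 16.4% lower. In 6 of the 10 the libraries of both groups did not overlap, as in 32.7% of all genes. Gclc and Nqo1 alone among the 10 changed by at least 2-fold, both upward, as 3.82% of all genes did (2.87% higher, 0.948% lower). Gclc was 2.47-fold higher (log2 change 1.31, SE 0.044, edgeR adjusted p = 1.45e-13) and Nqo1 2.51-fold higher (1.33, SE 0.064, edgeR adjusted p = 2.14e-11). These are the same 2 genes that were lower in IFNγ/LPS CM, but both comparisons share the naive CM libraries, so the opposite directions are not independent of each other. Gss and Srxn1 rose 1.21-fold and 1.23-fold (edgeR adjusted p = 0.00544 and 0.00436).

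The calls of Slc7a11 and Hmox1 in this comparison lay close to the threshold. Slc7a11 was 1.86-fold higher in naive CM (log2 change 0.90, SE 0.26, edgeR adjusted p = 0.0243) and Hmox1 1.68-fold lower (-0.75, SE 0.22, edgeR adjusted p = 0.0244). Slc7a11 lost its call without naive CM replicate 2, 3 or 4 or regular medium replicate 2 (edgeR adjusted p = 0.0524, 0.0585, 0.0534 and 0.0666). Hmox1 lost it without naive CM replicate 1, 2 or 4 or regular medium replicate 4 (edgeR adjusted p = 0.0665, 0.0588, 0.0625 and 0.0637). Both also lost it when only these 2 groups were fitted (edgeR adjusted p = 0.0802 and 0.0776). Over all 20 alternatives the log2 change kept its direction, at 0.69 to 1.11 for Slc7a11 and -0.88 to -0.55 for Hmox1. The Slc7a11 to Slc3a2 ratio was 1.85-fold higher in naive CM (difference 0.89 on the log2 scale, exact permutation p = 0.0286, n = 4 each), and p rose to 0.0857 without any one of the 4 naive CM libraries.

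**Figure D3:**
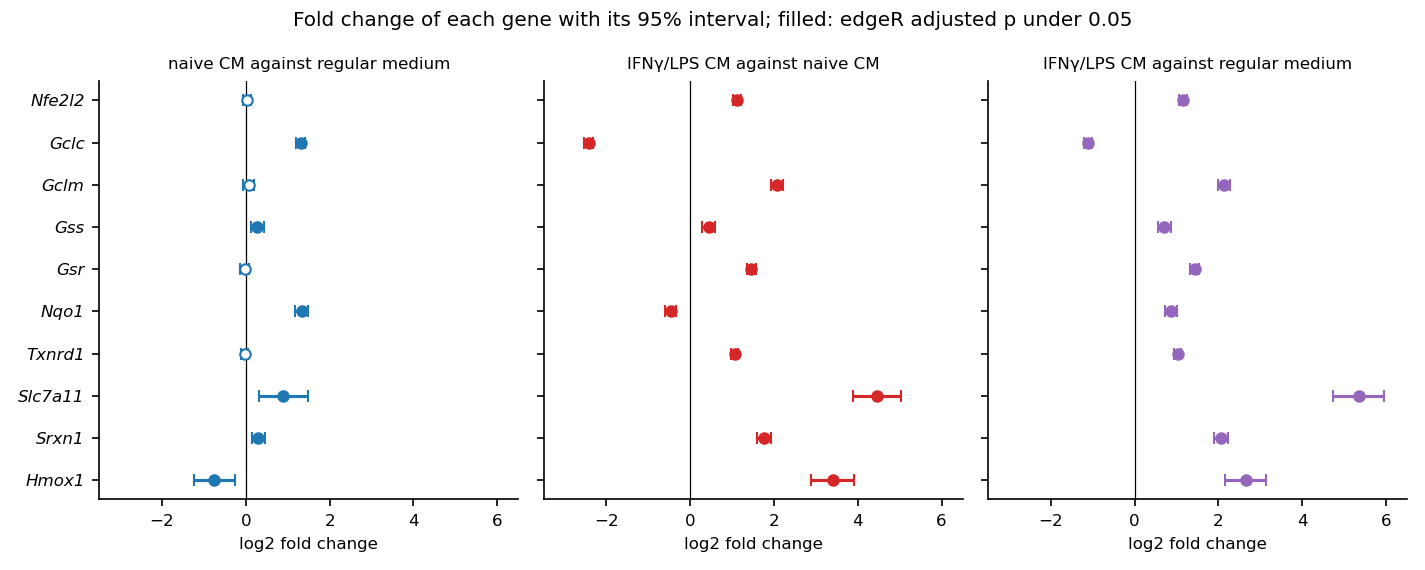
Log2 fold change of each of the 10 genes in the 3 comparisons, with 95% intervals from the edgeR fit; filled points have an adjusted p under 0.05. Gclc lies at 1.31, -2.42 and -1.12, whereas Slc7a11 reaches 4.46 and 5.35 in the comparisons that involve IFNγ/LPS CM; comparisons share libraries.

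Against regular medium, IFNγ/LPS CM had 9 of the 10 genes higher and Gclc lower, all past the test and with no overlap of libraries. The background was 71.8% called, 35.4% higher and 36.4% lower, and 65.2% without overlap. With a change of at least 2-fold as well 7 were higher and 1 lower, against 28.1% of all genes, 13.7% higher and 14.4% lower. This comparison shares its libraries with the others and is given for the levels. Slc7a11 was 40.9-fold, Hmox1 6.28-fold, Gclm 4.40-fold, Srxn1 4.15-fold and Gsr 2.70-fold higher.

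Levels of different genes were compared per length, as length-scaled shares per 1000000 (TPM) from merged exon lengths of GENCODE M21, which understates genes with rare long isoforms. In regular medium Gclc (244 ± 17.4 TPM) and Nfe2l2 (228 ± 12.1 TPM) came first and overlapped, and Slc7a11 came last (2.75 ± 1.13 TPM; mean ± SD, n = 4). In naive CM Gclc was first at 610 ± 28.5 TPM, ahead of Nfe2l2 at 236 ± 9.87 TPM and Nqo1 at 181 ± 5.29 TPM without overlap. In IFNγ/LPS CM the order was led by Hmox1 at 531 ± 33.9 TPM, followed by Nfe2l2 at 371 ± 13.6 TPM and Srxn1 at 238 ± 12.9 TPM. There Nqo1 (94.0 ± 9.35 TPM), Gclc (82.0 ± 2.08 TPM), Slc7a11 (79.6 ± 5.61 TPM) and Gclm (77.5 ± 4.09 TPM) followed one another with overlapping libraries. The gene listed first in both other media thus ranked among the last 4 in IFNγ/LPS CM.

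The genes around the 10 were read from 7 lists with 99 identifiers (Nnt has 2), of which 93 could be tested. In IFNγ/LPS CM against naive CM 47 were higher, 34 lower and 12 did not pass, a share of 87.1% called against 71.9% of all genes (36.1% higher, 35.8% lower). In naive CM against regular medium 41 were higher, 11 lower and 41 did not pass, a share of 55.9% against 34.7% of all genes (18.3% higher, 16.4% lower). In IFNγ/LPS CM against naive CM 10 of 11 genes that control NRF2 rose. The other, Rbx1, was unchanged (log2 change 0.0014, edgeR adjusted p = 0.982). That is a called share of 90.9% against 71.9% of all genes. The median of the 11 on the log2 scale was 1.04. Lists here and below are read in this comparison unless another is named. Both repressors were among the 10 that rose: Keap1 rose 2.05-fold to 119 ± 2.28 CPM (edgeR adjusted p = 3.07e-12) and Bach1 3.38-fold to 193 ± 9.71 CPM (edgeR adjusted p = 1.71e-17). So were the small MAF partners Mafg, 2.05-fold higher, and Maff, 2.57-fold higher, and Sqstm1, p62, an adaptor that draws KEAP1 into autophagy, 1.92-fold higher. With libraries scaled by their totals alone (library totals) 8 of the 11 were higher and 2 lower. That scaling gave 3279 higher and 9371 lower calls among all genes, with a median change of -0.38 in log2. Counts with library totals, here and below, have to be read against this shift. In naive CM against regular medium none of the 11 was higher, 4 were lower and 7 did not pass. With directions pooled, that called share of 36.4% is close to the 34.7% of all genes. All 4 calls were lower, however, as were 16.4% of all genes. The naive CM libraries are shared with the comparison above.

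Cystine supply and glutathione turnover genes rose in 8 of 10 tested cases and fell in 2 (median 0.78 in log2), or 5 and 4 with library totals. The called share was 100%, against 71.9% of all genes (36.1% higher, 35.8% lower). Ggct, which breaks down gamma-glutamyl dipeptides, rose 9.14-fold to 89.9 ± 2.83 CPM and Ggt5, a gamma-glutamyl transferase, 6.26-fold to 9.85 ± 0.872 CPM. Chac2, which degrades glutathione, fell 1.66-fold to 15.8 ± 0.771 CPM. Naive CM, which both comparisons share, was 1.69-fold above regular medium for Chac2. IFNγ/LPS CM did not differ detectably from regular medium (log2 change 0.027, edgeR adjusted p = 0.750).

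Of 27 tested enzymes that use glutathione, 5 were higher, 16 lower and 6 not past the test (median -0.27 in log2), a called share of 77.8% against 71.9% of all genes. In IFNγ/LPS CM against regular medium 8 were higher and 12 lower (median -0.15 in log2), a called share of 74.1% against 71.8% of all genes. Gsta4, a glutathione transferase for lipid aldehydes, fell 9.79-fold, from 83.3 ± 4.91 CPM in naive CM to 8.49 ± 0.956 CPM, and Mgst3, a microsomal family member, fell 4.56-fold. Glrx, glutaredoxin, rose 6.36-fold, from 58.5 ± 0.720 CPM to 372 ± 11.2 CPM. Gpx4, which reduces lipid peroxides, fell 1.33-fold to 189 ± 4.95 CPM (edgeR adjusted p = 6.31e-06). Near-identical copies make single values in the Gsta, Gstm and Gstp families uncertain. With library totals, which shifted all genes downward, 4 were higher and 20 lower. In naive CM against regular medium, a comparison that shares the naive CM libraries, 12 were higher, 2 lower and 13 not past the test. That is a called share of 51.9% against 34.7% of all genes. Gsta4 and Mgst3 were 1.52-fold and 1.47-fold higher there.

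In the thioredoxin and peroxiredoxin list 9 of 11 were higher, 1 was lower and 1 did not pass (median 0.35 in log2). That is a called share of 90.9% against 71.9% of all genes (36.1% higher, 35.8% lower). With library totals, however, 4 were higher and 5 lower. Prdx5 rose 6.47-fold to 862 ± 15.3 CPM, Txnip, a thioredoxin inhibitor, 2.64-fold and Prdx1, an NRF2 target, 1.57-fold. Txn1, thioredoxin, rose 1.28-fold (edgeR adjusted p = 7.39e-07), a direction that turned with library totals (log2 fold change -0.035, edgeR adjusted p = 0.50). Txnrd3 fell 1.16-fold, a call lost without naive CM replicate 1 (edgeR adjusted p = 0.0540).

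**Figure D4:**
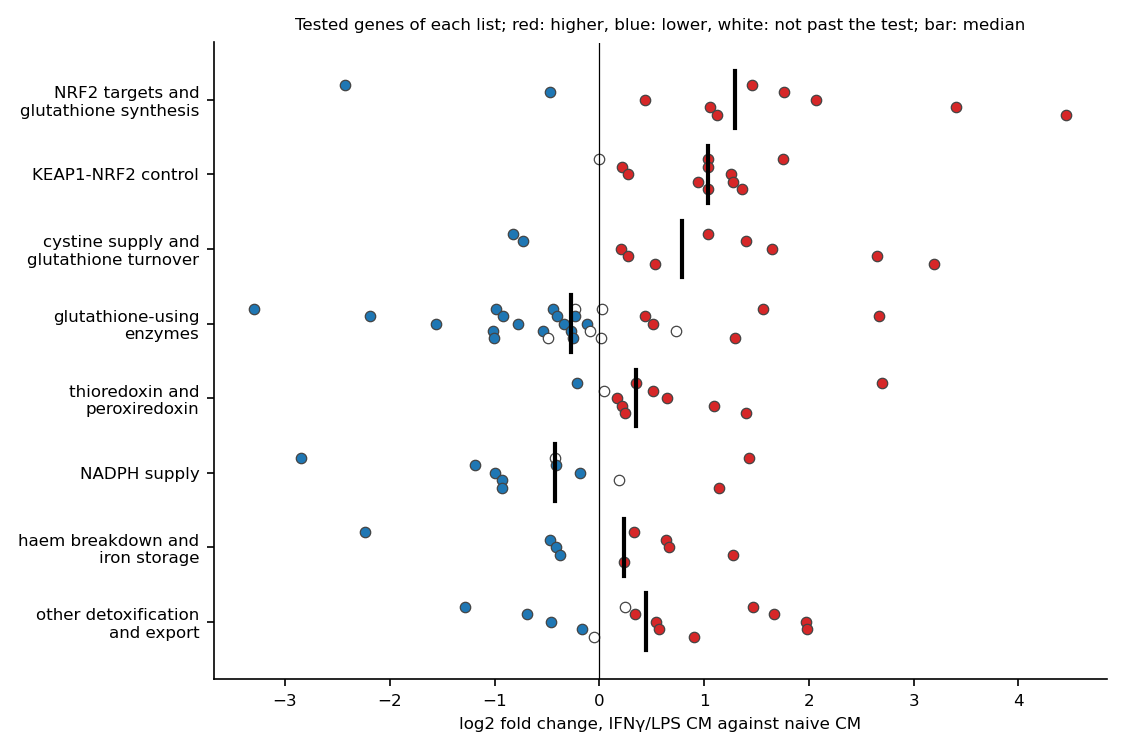
Log2 fold change in IFNγ/LPS CM against naive CM of the tested genes in the 10-gene set and the 7 lists around it; each point is a gene (red higher, blue lower, white not past the test) and bars are medians. The 11 genes that control NRF2 lie at or above 0, and the 27 glutathione-using enzymes reach from -3.29 to 2.67.

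NADPH, the reductant that Gsr, Txnrd1 and Nqo1 all draw on, comes from several enzymes. Of 11 identifiers in that list 2 were higher, 7 lower and 2 not past the test (median -0.42 in log2), or 2 and 8 with library totals. Its called share of 81.8% stood against 71.9% of all genes (36.1% higher, 35.8% lower). G6pdx, the entry of the pentose phosphate pathway, fell 1.90-fold to 156 ± 8.04 CPM, and naive CM, which both comparisons share, was 1.74-fold above regular medium. For G6pdx IFNγ/LPS CM did not differ detectably from regular medium (log2 change -0.126, edgeR adjusted p = 0.0874). Pgd, the next dehydrogenase of that pathway, rose 2.68-fold to 275 ± 12.6 CPM. Idh2, the mitochondrial isocitrate dehydrogenase, fell 7.19-fold to 12.8 ± 0.441 CPM and its cytosolic counterpart Idh1 fell 2.27-fold.

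Haem and iron genes split into 5 higher and 4 lower (median 0.24 in log2), or 3 and 5 with library totals. The share called was 100%, against 71.9% of all genes (36.1% higher, 35.8% lower). The ferritin chains diverged: Fth1, the heavy chain, rose 2.42-fold to 1502 ± 185 CPM and Ftl1, the light chain, fell 1.38-fold to 840 ± 37.2 CPM; processed copies in the genome make both values uncertain. Blvrb, a biliverdin reductase, rose 1.59-fold, while Slc40a1, the iron exporter ferroportin, fell 4.73-fold to 1.08 ± 0.0807 CPM. Of 14 tested genes of other detoxification and export 8 were higher, 4 lower and 2 not past the test (median 0.44 in log2). With library totals 6 were higher and 5 lower. Here 85.7% were called, against the same 71.9% of all genes. Esd, which hydrolyses S-formylglutathione, rose 3.95-fold to 1140 ± 34.1 CPM, Abcc1, which exports glutathione conjugates, rose 3.91-fold, and Ptgr1, a prostaglandin reductase, fell 2.43-fold.

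The genes with the most similar pattern were sought among 10655 named genes with a mean of at least 5 CPM. The measure was the root mean square difference of log2 CPM, centred on each gene's mean, over the 12 libraries. Nearest to Nfe2l2 were Tbrg1 (0.043), Entpd4 (0.055) and P2rx4 (0.059). Nearest to Gclc were Espl1 (0.14), Spn (0.15) and 4930579G24Rik (0.16), so its pattern had less close neighbours than that of Nfe2l2. Gclm was nearest to Itpripl2 (0.068), Gss to Esyt1 (0.062), Gsr to D17Wsu92e (0.048), Txnrd1 to Ostf1 (0.050), Srxn1 to Shisa5 (0.086) and Nqo1 to Aldh1l2 (0.15). Slc7a11 was nearest to Lbp (0.28), and Hmox1 to Rassf4 (0.30), Vegfa (0.31) and Cish (0.31). Since the 3 groups set most of each pattern, these values describe likeness over 3 media and no more.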

How the data were processed

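The authors deposited expected counts, whole numbers per Ensembl gene and library, estimated with Salmon 1.10.1 and build mm10 per the submitters' processing notes. Libraries were made with a stranded mRNA kit, per the labels' protocols. For the annotation release and the summing to genes nothing is given in the sources used. Symbols came from GENCODE M21 (GRCm38, the same build) for 51344 of 55822 identifiers, version removed.

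The counts were filtered with filterByExpr (16140 genes kept), scaled by TMM and tested with the edgeR 4.0.16 quasi-likelihood F-test (two-sided, robust option) under R 4.3.3. One model held all 12 libraries with 9 residual degrees of freedom. P-values were Benjamini-Hochberg adjusted over all genes of a comparison. The SE is the log2 fold change over the square root of F. The script was run on simulated counts with few changed genes, as many up as down. Most genes are called in the comparisons with IFNγ/LPS CM, so that run does not check the scaling used here. Ratios of 2 genes were tested by exact permutation of libraries.

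Members and lists were chosen with earlier results of these data known. Named were all 10 members, 11 set pathway genes and, per list, up to 2 called genes that moved most in the commoner direction and 1 in the opposite direction (at least 5 CPM in the higher group, libraries not overlapping). Same-numbered libraries were not treated as paired: the correlation of their deviations was -0.11 to 0.16 over 12 pairs. Alternatives were other scalings (DESeq2 1.42.0 size factors, library totals), other filters, the DESeq2 Wald test, limma-voom 3.58.1, fits of 2 groups, the replicate block and leaving out each library.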

Additional observations from a re-analysis of the deposited data

Results flagged for a closer look

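A library stood apart from the other 3 of its group, by Dixon's criterion, in 8 of 123 groups examined (41 genes and ratios in 3 media), where about 5% are marked by chance. Among the 10 genes these were Gclc in IFNγ/LPS CM replicate 1 (116 CPM, the others 109 to 110), Txnrd1 in IFNγ/LPS CM replicate 1 (477 CPM, the others 442 to 444) and Txnrd1 in naive CM replicate 1 (210.7 CPM, the others 218.5 to 218.9). Among the surrounding genes they were, in regular medium replicate 2, Gsta4 (50.5 CPM, the others 56.2 to 56.8), Mgst3 (56.1 CPM, the others 66.5 to 68.3) and Slc40a1 (6.83 CPM, the others 5.86 to 5.89). In naive CM they were Blvrb in replicate 2 (17.4 CPM, the others 15.8 to 15.9) and Mafg in replicate 3 (45.6 CPM, the others 42.8 to 43.2). Each of these gaps is small beside the differences between IFNγ/LPS CM and naive CM of the same gene.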

How the results depend on the processing

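Of 30 results of the 10 genes (3 comparisons), 27 kept their side of the threshold under all 20 alternatives, and all that passed kept their direction. The exceptions were Gss in IFNγ/LPS CM against naive CM with library totals, and Slc7a11 and Hmox1 in naive CM against regular medium, each lost in 5 alternatives, as described. Gsr in naive CM against regular medium, which never passed, changed its sign between alternatives (log2 change -0.057 to 0.017). The number of the 10 genes called was 9 to 10, 4 to 6 and 10 in the 3 comparisons. Scaling by library totals moved the median change over all genes (log2) from 0.0039 to -0.38 in IFNγ/LPS CM against naive CM, with 3279 higher and 9371 lower calls in place of 5830 and 5781. It turned the direction of Txn1 (-0.035); the scaling itself shifts all fold changes of that comparison. With the replicate number as a block 10, 6 and 10 of the 10 genes were called, no call among them changed, and all genes gave 11653, 5780 and 11610 calls. Paired by replicate number, the differences in log2 ratio stayed at -4.49 and 1.23 (Gclc to Gclm) and 3.41 and 0.89 (Slc7a11 to Slc3a2), with an exact p of 0.125, the smallest that 4 pairs allow. Leaving out 1 library gave -4.54 to -4.45, 1.15 to 1.31, 3.38 to 3.47 and 0.68 to 1.04.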

Other observations

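Within a group, libraries tended to keep their rank over the 10 genes. In IFNγ/LPS CM replicate 1 was highest for 8 of the 10 and replicate 4 lowest for 7. In naive CM replicate 3 was highest for 8, and in regular medium replicate 3 was highest for 6. The last 2 are the shallowest libraries, with 28542613 and 28097496 counts, against at least 40270540 in the other 10. The part of depth in these ranks was not tested, and genes of one library are not independent.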
